A study of Mus musculus with 4 samples.

Results

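The cells described here are mesothelial and fibroblast-like stromal cells of the mouse liver, picked out of 4 single-cell transcriptome libraries. A cell was kept when it had at least 250 detected genes and at most 25% of its unique molecular identifier (UMI) counts on mitochondrial genes. Members were chosen by their UMI counts of 6 genes, Dcn, Col3a1, Col1a2, Igfbp6, Upk3b and Msln: a kept cell was a member when at least 3 of them had at least 1 UMI. The members numbered 357 of 24030 kept cells. They were split by the genes Upk3b, Msln, Lrrn4 and Wt1 into 312 mesothelial-positive cells, with at least 1 UMI over these 4 genes, and 45 mesothelial-negative cells, with none. The rule names 8 genes in all and was written with the levels in KO and Control libraries known, so the levels of these genes, and the share of members in each group, are descriptions without a test.

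The study set 2 libraries of the genotype Cyr61 KO against 2 of the genotype Control. All 4 came from male mice of a strain labelled Cyr61fl/fl, aged 24 weeks, that had been fed a diet inducing non-alcoholic steatohepatitis (NASH) for 12 weeks. The labels do not name a Cre driver or the cells in which Cyr61 was deleted, and do not say that each library is a separate animal, so any p-value below measures the spread between these libraries, which may be technical. The tissue had been frozen in medium with 10% DMSO and was digested after thawing, and a column took out dead cells before droplet capture. Cyr61 is listed in the files under its current symbol, Ccn1.

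Mesothelial cells form the thin epithelial sheet over the liver capsule. They combine epithelial features (keratins, tight junctions, surface glycoproteins such as mesothelin, encoded by Msln) with a strong output of extracellular matrix, and the transcription factor encoded by Wt1 marks them. Fibroblasts of the portal tract and of vessel walls share the collagen and proteoglycan genes but lack the epithelial ones. Hepatic stellate cells, the vitamin A-storing pericytes of the sinusoids, are the main collagen producers in the fibrotic liver and are marked by Lrat. Ccn1 encodes a secreted matricellular protein that binds integrins, and it is a textbook target of the YAP and TEAD transcription regulators. Of these the TEAD proteins bind DNA, through the letters GGAATG.

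The promoters of 4 genes are shown whose transcripts lay almost entirely in these cells, among them a collagen gene for the shared matrix genes. The same held for Col1a2 and Igfbp6, which also had a promoter entry but are not printed. Upk3b encodes a uroplakin of the mesothelial surface, Lrrn4 a leucine-rich repeat membrane protein, Ccn1 the gene deleted in the KO livers and Col3a1 a fibrillar collagen chain. Each window holds 300 bases, from 250 before to 50 after the transcript start, taken from RefSeq on GRCm38.p6 and printed 5′ to 3′ on the gene's own strand. Capitals mark those 6 letters, read on either strand.
Upk3b: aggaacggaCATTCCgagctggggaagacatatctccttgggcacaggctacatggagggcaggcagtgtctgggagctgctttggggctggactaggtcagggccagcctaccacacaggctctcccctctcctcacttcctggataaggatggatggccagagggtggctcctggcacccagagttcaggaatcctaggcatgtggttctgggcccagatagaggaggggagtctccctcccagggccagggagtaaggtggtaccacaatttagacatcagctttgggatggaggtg
Lrrn4: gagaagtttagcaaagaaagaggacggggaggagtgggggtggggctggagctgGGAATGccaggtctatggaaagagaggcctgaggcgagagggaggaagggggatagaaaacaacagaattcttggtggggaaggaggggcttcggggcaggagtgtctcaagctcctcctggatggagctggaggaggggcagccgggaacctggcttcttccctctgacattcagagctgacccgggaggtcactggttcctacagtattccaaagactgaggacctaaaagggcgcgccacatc
Ccn1: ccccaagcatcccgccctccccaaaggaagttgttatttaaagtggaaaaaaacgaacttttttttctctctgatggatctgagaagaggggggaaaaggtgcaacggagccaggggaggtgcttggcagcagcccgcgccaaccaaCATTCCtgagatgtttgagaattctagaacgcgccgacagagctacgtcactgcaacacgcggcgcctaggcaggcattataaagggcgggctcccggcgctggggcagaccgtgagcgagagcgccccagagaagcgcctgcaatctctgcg
Col3a1: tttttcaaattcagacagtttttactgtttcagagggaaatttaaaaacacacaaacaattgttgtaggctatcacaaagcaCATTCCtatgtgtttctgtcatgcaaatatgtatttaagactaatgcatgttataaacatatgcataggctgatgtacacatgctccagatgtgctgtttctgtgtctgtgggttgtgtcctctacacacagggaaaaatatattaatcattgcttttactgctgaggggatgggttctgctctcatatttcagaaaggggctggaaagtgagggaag
The windows lie at chr5:136038246-136038545 on the plus strand for Upk3b, chr2:132880813-132881112 on the minus strand for Lrrn4, chr3:145649936-145650235 on the minus strand for Ccn1 and chr1:45311288-45311587 on the plus strand for Col3a1. The letters were found in the promoters of 4 of the 6 genes, among the rule genes and Ccn1, that had an entry, with no match in the windows of Col1a2 and Igfbp6. The 4 with a match are the 4 printed, so the printed windows overstate how often the letters occur. Over all 32851 promoter windows of this length, 14.7% held the letters on either strand. A match is a description of these bases and not a binding site. In the GENCODE vM21 annotation of GRCm38, Upk3b spans chr5:136038496-136046487, Msln chr17:25748613-25754378, Lrrn4 chr2:132868305-132880891, Wt1 chr2:105126529-105173616, Dcn chr10:97479609-97518143 and Ccn1 chr3:145646976-145649981. All 6 are protein-coding.

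Depth differed between libraries. The kept cells held 17113130 UMIs in KO 1, 17465693 in KO 2, 8169268 in Control 1 and 20390658 in Control 2, with medians per cell of 1913, 2869, 1225 and 2241 UMIs in the same order. Members were deeper than the cells around them. The median was 2045.5 UMIs in members of Control 1, against 1197.5 in its other kept cells, and 14439 UMIs in members of Control 2, against 2227 in its other kept cells. Between any pair of libraries 6 to 22 cell barcodes were shared, and 1 member barcode occurred in both Control libraries. Without it, the members numbered 293 in Control 1 and 62 in Control 2.

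Every member came from a Control library. KO 1 had 0 members among 7157 kept cells, which allows a share of up to 0.0419%, and KO 2 had 0 among 5065, which allows up to 0.0592% (limits set by 3 cells, for counting error only). Control 1 had 294 members among 4718 kept cells, or 6.23% (exact binomial 95% interval 5.56 to 6.96), and Control 2 had 63 among 7090, or 0.889% (0.683 to 1.14). The intervals of the 2 Control libraries did not overlap, so the members' share also differed within the Control group. Because of their depth, members held 17.7% of the kept UMIs of Control 1 and 5.13% of those of Control 2.

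No KO cell came near the threshold of 3 genes. In KO 1, 26 kept cells had 1 of the 6 genes and none had 2 or more, and in KO 2 19 cells had 1 and none had 2 or more. In Control 1, 46 members had exactly 3 of the genes and 21 cells just outside the rule had 2, and in Control 2 the numbers were 4 and 2. All 6 genes were found in 83 members of Control 1 and 35 of Control 2. Barcodes that failed the cell filters but carried 3 or more of the genes numbered 0 in KO 1, 0 in KO 2, 10 in Control 1 and 9 in Control 2. With 2 libraries a group, the genotype and any other difference between these samples cannot be told apart.

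**Figure D1:**
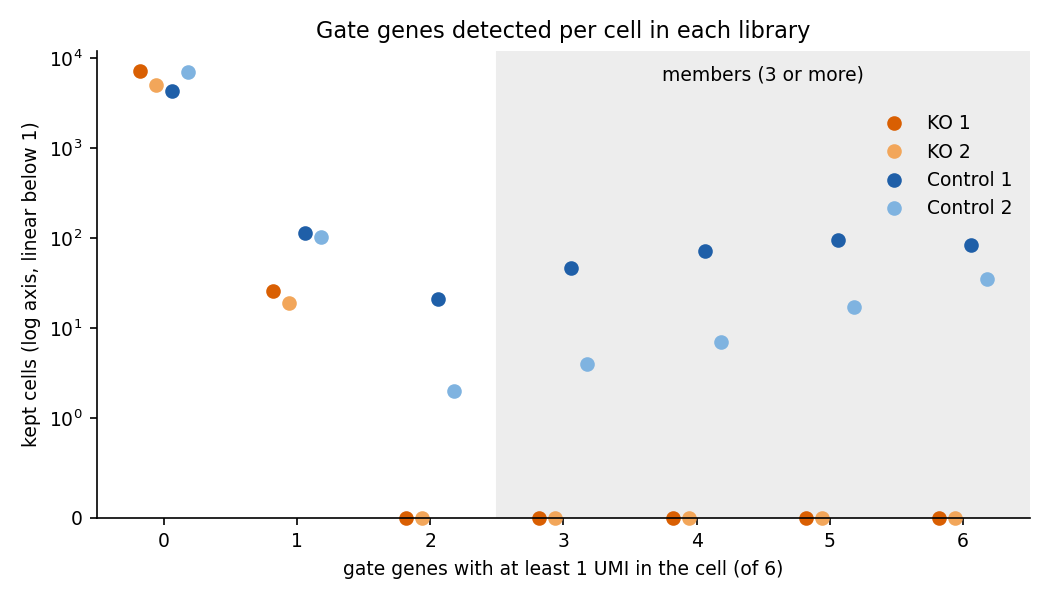
Kept cells of each library (vertical log axis, linear below 1) by the number of the 6 gate genes with at least 1 UMI (horizontal axis); the shaded area holds the members. Both KO libraries stop at 1 gene, while Control 1 has 83 and Control 2 has 35 cells with all 6.

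The genes of the rule were close to absent from the KO libraries as a whole, also over barcodes outside the cell filters. Dcn, the collagen-binding proteoglycan decorin, had 1 UMI in KO 1 and 2 in KO 2, against 7347 in Control 1 and 10300 in Control 2. Col3a1 had 0 and 1 UMIs in KO 1 and KO 2, against 3445 and 3171 in Control 1 and Control 2. Col1a2, a chain of type I collagen, had 0 UMIs in each KO library, against 2531 in Control 1 and 1785 in Control 2. Igfbp6, an insulin-like growth factor binding protein, had a low count in each KO library, 25 UMIs in KO 1 and 19 in KO 2, against 2684 in Control 1 and 2464 in Control 2. These genes separated the libraries without overlap, by the choice of the rule.

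The mesothelial genes showed the same split. Upk3b had 1 UMI in KO 1 and 0 in KO 2, against 1264 in Control 1 and 804 in Control 2. Msln had 0 UMIs in each KO library, against 705 and 430 in Control 1 and Control 2. Wt1 likewise had 0 UMIs in each KO library, against 407 and 349 in Control 1 and Control 2. Lrrn4 had 13 and 3 UMIs in KO 1 and KO 2, against 388 and 305 in Control 1 and Control 2. Between 95.3% and 99.3% of the Control UMIs of each of these 8 genes sat in members.

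Detection of single genes varied with depth. Dcn had a UMI in 291 of 294 members (99.0%) of Control 1 and in all 63 of Control 2. In T cells of the same libraries, taken as other kept cells with a UMI of Cd3e or Cd3d, Dcn had a UMI in 13 of 1891 cells (0.687%, median depth 1483 UMIs) of Control 1 and 25 of 3416 (0.732%, median 2874) of Control 2. Msln was found in 54.4% of members of Control 1 and 60.3% of Control 2, against 0 of these T cells in either library. With each member thinned to 1000 UMIs, which left out 63 members of Control 1 and 1 of Control 2, Msln was found in 37.2% of 231 and 25.8% of 62 members. After thinning Wt1 was found in 25.5% and 25.8%, against 54.8% and 88.9% before it.

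Mesothelial and fibroblast genes were found in the same barcodes. Of kept cells with at least 2 of the 4 mesothelial genes, whatever their collagen genes, 211 of 213 in Control 1 and 56 of 56 in Control 2 also had a Dcn UMI. All 3 of Dcn, Col3a1 and Col1a2 were found in 211 members of Control 1, of which 180 were mesothelial-positive, and in 60 members of Control 2, of which 56 were. The rule itself asks for at least 1 matrix or Igfbp6 transcript in every member, so members without any could not occur. Median depth of the Control 1 classes was 2126 UMIs in positive and 1649 UMIs in negative cells.

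Ccn1, the gene the KO removes, lay almost wholly in these cells. Over all barcodes it had 0 UMIs in KO 1 and 12 in KO 2, against 184 in Control 1 and 149 in Control 2. Members held 175 of the UMIs of Control 1 (95.1%) and 144 of those of Control 2 (96.6%), in 66 and 28 cells. In mesothelial-positive cells Ccn1 had 172 UMIs in Control 1 and 144 in Control 2, and in mesothelial-negative cells 3 and 0. The negative cells were few, with 113693 UMIs of all genes in Control 1 and 10599 in Control 2. The Ccn1 level in members was 121 CPM (UMIs of the gene scaled to a fixed total of the summed UMIs of those cells) in Control 1 and 138 CPM in Control 2. In Control 1 it was 129 CPM in positive and 26.4 CPM in negative cells.

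Outside the members, the kept cells held 0 Ccn1 UMIs in KO 1, 12 in KO 2, 8 in Control 1 and 2 in Control 2. The KO and Control libraries thus overlapped once the members were set aside. Of the 12 in KO 2, 11 sat in 1 cell with 5 UMIs of Pecam1 and 1 of Cdh5, both endothelial adhesion genes, no Ptprc and none of the 6 gate genes. The labels do not say which part of the gene was deleted, so a 3′ count does not by itself show its loss, and with no members in the KO libraries the deletion could not be checked in the cells where Control livers hold the transcript.

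The label was checked against marker genes of the cell types a liver digest can hold. Of 20 further mesothelial genes, all had a member UMI, 19 had at least 20 UMIs in the members of each Control library, and the level of those 19 was over 2-fold higher in members than in the other kept cells in both. Across all 5904 genes with that depth, 31.3% were over 2-fold higher in members in both libraries, with a median log2 ratio of 0.49 in Control 1 and 0.58 in Control 2. The summed mesothelial list stood at 4924 CPM in members of Control 1 and 6056 CPM in those of Control 2. In the other kept cells it stood at 4.67 CPM in KO 1, 4.87 in KO 2, 62.0 in Control 1 and 6.20 in Control 2. Members against other cells is the contrast of the rule, so these ratios carry no test.

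Among the mesothelial genes, Nkain4, a sodium pump-interacting membrane protein, reached 833 CPM in members of Control 1 and 1010 CPM in those of Control 2, with 0.297 and 0.258 CPM in the other cells of the same libraries. Krt19, an epithelial keratin, stood at 384 CPM in members of Control 1 and 488 CPM in those of Control 2. Gpm6a, a membrane glycoprotein, stood at 438 and 410 CPM in the same order. Upk1b, a second uroplakin, averaged 370 ± 3.42 CPM and Ptgis, the prostacyclin synthase, 910 ± 200 CPM in members (SD, n = 2 libraries). The levels of these genes in members lay above those in other cells in both libraries.

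Genes of other stromal types were found too. Of 14 listed stellate genes 9 had a member UMI, and the 4 with enough depth, Ecm1, Cygb, Des and Hand2, were over 2-fold higher in members of both libraries, while Lrat, Colec10, Lhx2, Rgs5 and Vipr1 had 0 UMIs in members. All 10 myofibroblast genes had a member UMI and all 7 with enough depth were over 2-fold higher in members of both libraries, the summed list standing at 2484 CPM in members of Control 1 and 3882 CPM in those of Control 2, against 12.9 and 3.77 CPM in the other cells. Acta2, the actin of smooth muscle and myofibroblasts, stood at 102 CPM in Control 1 and 115 CPM in Control 2. Myh11, the smooth muscle myosin, had 1 and 3 UMIs. Of 7 smooth muscle genes only Smtn had enough depth, and it was over 2-fold higher in members of both libraries. It stood at 77.4 and 33.5 CPM in members of Control 1 and Control 2, against 1.93 and 0.982 CPM in the other cells. All 16 portal fibroblast genes had a member UMI and the 9 that reached 20 UMIs in each library were over 2-fold higher in members, led by Mgp, an inhibitor of calcification, at 571 CPM in Control 1 and 1247 CPM in Control 2.

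Among non-stromal markers single genes differed within a list. Pecam1, an endothelial gene, had 2 and 0 UMIs in members of Control 1 and Control 2, but Kdr, an endothelial growth factor receptor, had 36 and 61, or 24.9 and 58.3 CPM, against 4.16 and 0.672 CPM in the other cells. The biliary gene Epcam had 1 UMI in members of each Control library, but the biliary transcription factor gene Sox9 had 27 and 21, or 18.7 and 20.1 CPM, against 2.23 and 0.052 CPM in the other cells. Kdr and Sox9 were the only genes of the endothelial and cholangiocyte lists with 20 member UMIs in each library, and both were over 2-fold higher in members. The hepatocyte gene Alb had 3 and 1 member UMIs. Every gene of the mesothelial, portal fibroblast and myofibroblast lists had a member UMI. So had every gene of the T cell, B cell, natural killer cell and neutrophil lists. In the former lists all genes with enough depth were over 2-fold higher in members of both libraries, as in the stellate list. No gene of these leukocyte lists was, but only 1 T cell gene and 1 natural killer cell gene had enough depth. No B cell or neutrophil gene had it. Genes low in members can fall short of that depth, so this contrast was partly fixed by the depth limit. The broad label of mesothelial and fibroblast-like cells follows the rule, and no narrower type was named.

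Leukocyte transcripts were present at a low level. The summed pan-leukocyte list of 6 genes stood at 608 CPM in members of Control 1 and 531 CPM in those of Control 2, against 6571 and 6734 CPM in other cells of the same libraries. All 6 of its genes were found and all 6 were lower in members. At least 2 of the 6 genes were found in 63 members of Control 1 (21.4%) and 29 of Control 2 (46.0%), against 89.9% and 93.5% of the other cells. Those members held 31.2% of the member UMIs of Control 1 and 52.2% of those of Control 2. The number of such members depends on depth, with medians of 2045.5 and 14439 UMIs in members of Control 1 and Control 2. It also depends on Arhgdib, 1 of the 6 genes, found in 124 of 294 and 55 of 63 members. The part of mixed droplets in these counts was not tested, and no doublet caller was run.

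**Figure D2:**
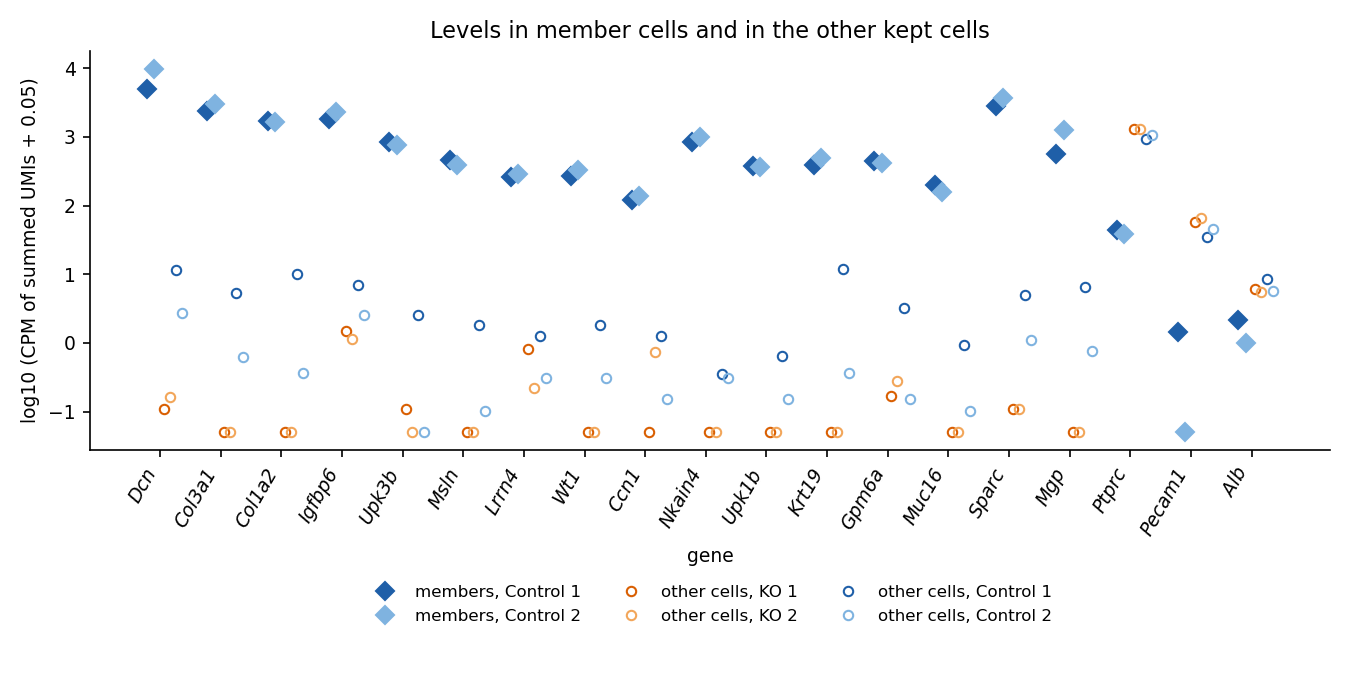
Levels of rule genes, Ccn1 and marker genes as log10 of CPM plus 0.05 (vertical axis); filled diamonds are members of each Control library, open circles the other kept cells of each library. Members lie above other cells for stromal and mesothelial genes and below them for the leukocyte gene Ptprc and the endothelial gene Pecam1; the endothelial gene Kdr, not plotted, was higher in members.

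Genes outside the rule were ranked by the ratio of member to other-cell level in the lower of both Control libraries. Of the 20 with the largest ratio, Gjb5, a gap junction protein, had 114 member UMIs in Control 1 and 73 in Control 2, and 0 UMIs in the other kept cells of all 4 libraries. Tmeff2, a transmembrane protein with follistatin-like domains, had 84 and 60 member UMIs in Control 1 and Control 2 and likewise 0 UMIs in all other cells. Krt14, a keratin of stratified epithelia, had 67 and 113 member UMIs and 0 elsewhere. Has1, a hyaluronan synthase, had 44 and 64 member UMIs and 0 UMIs in the other cells of both Control libraries.

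Sparc, which encodes the collagen-binding protein osteonectin, had the most UMIs of these 20, at 2836 CPM in members of Control 1 and 3651 CPM in those of Control 2, against 4.91 and 1.03 CPM in other cells. The matrix genes Mfap5, Loxl1 and Fbln1, for a microfibril protein, an elastin cross-linking enzyme and fibulin-1, averaged 187 ± 15.9, 367 ± 14.1 and 162 ± 9.47 CPM in members (SD, n = 2 libraries). The signalling genes were Fgf1, a fibroblast growth factor, at 144 ± 36.1 CPM, Tnfrsf11b, the decoy receptor osteoprotegerin, at 124 ± 75.6 CPM, and Cxcl13, a chemokine that draws B cells, at 295 ± 257 CPM. Cxcl13 differed between the libraries, at 476 CPM in Control 1 and 113 CPM in Control 2. A single cell held 362 of its 689 member UMIs in Control 1, and another held 64 of 118 in Control 2. The remaining 9 were Nkain4, Upk1b, Rpp25, Rarres1, Sez6l, Nnmt, Cavin3, Dmkn and Wfdc1, of which Dmkn, an epithelial secreted protein, was at 748 ± 90.6 CPM. Nnmt, nicotinamide N-methyltransferase, stood at 184 CPM in Control 1 and 248 CPM in Control 2, and Cavin3, a coat protein of caveolae, averaged 383 ± 9.38 CPM.

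Matrix genes were broadly expressed. All 15 genes of the fibrillar collagen list had a member UMI and the 14 with enough depth were over 2-fold higher in members in both Control libraries. Col1a1 stood at 1267 CPM in Control 1 and 1004 CPM in Control 2, and Serpinh1, the collagen chaperone, at 841 and 695 CPM. All 12 elastic fibre genes, all 11 proteoglycan genes and all 13 basement membrane genes that reached the depth were over 2-fold higher too. Bgn, the proteoglycan biglycan, averaged 810 ± 128 CPM, and Eln, elastin, 320 ± 15.1 CPM (SD, n = 2 libraries). Inhibitors of matrix proteases were found too, with Timp2 at 1435 CPM in Control 1 and 1305 CPM in Control 2 and Timp3 at 890 and 832 CPM.

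Complement genes were high in members as well. C3, the central complement protein, stood at 4337 CPM in members of Control 1 and 5613 CPM in those of Control 2, against 37.0 and 23.2 CPM in the other cells. Serping1, the C1 inhibitor, and C1s1, the C1s protease, averaged 1237 ± 503 and 849 ± 11.2 CPM in members. The 11 complement genes with enough depth were each over 2-fold higher in members in both libraries. Of 4 acute-phase genes with enough depth 2 were over 2-fold higher in both libraries. Saa3, a serum amyloid protein, stood at 3027 CPM in Control 1 and 6627 CPM in Control 2, and Slpi, a secreted leukocyte protease inhibitor, at 1655 and 3809 CPM. Hp, the haemoglobin-binding protein haptoglobin, had log2 ratios of 0.88 and 0.21 in Control 1 and Control 2, and Lcn2, the siderophore-binding lipocalin, 0.88 and -0.12. Of the immediate early and stress genes 2 of 20 were over 2-fold higher in both libraries, against 31.3% of all 5904 genes with enough depth. Hspb1, a heat shock gene and 1 of the 2, stood at 2177 and 2694 CPM in members of Control 1 and Control 2. In other cells it stood at 13.1 and 4.86 CPM. Fos stood at 2073 and 2421 CPM in members, against 2597 and 1959 CPM in other cells of Control 1 and Control 2.

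Ligand and receptor genes of fibrotic signalling were found in members. Pdgfra, the receptor for platelet-derived growth factor A, stood at 187 CPM in members of Control 1 and 114 CPM in those of Control 2, and its ligand gene Pdgfa at 36.6 and 49.7 CPM. Pdgfb was at 3.46 and 3.82 CPM in members, below the 26.8 and 16.1 CPM of the other cells. Pdgfrb, Pdgfc and Pdgfd averaged 12.5, 7.94 and 8.80 CPM. Tgfb2 and Tgfb3, transforming growth factor genes, averaged 70.8 ± 12.1 and 81.2 ± 8.23 CPM, while Tgfb1 averaged 33.8 ± 11.7 CPM, below the 180 and 164 CPM of the other cells of Control 1 and Control 2. Among relatives of Ccn1, Ccn2 averaged 33.5 ± 16.2 CPM (SD, n = 2 libraries), with Ccn3 at 20.7 and 31.5 CPM and Ccn4 at 8.30 and 22.9 CPM.

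**Figure D3:**
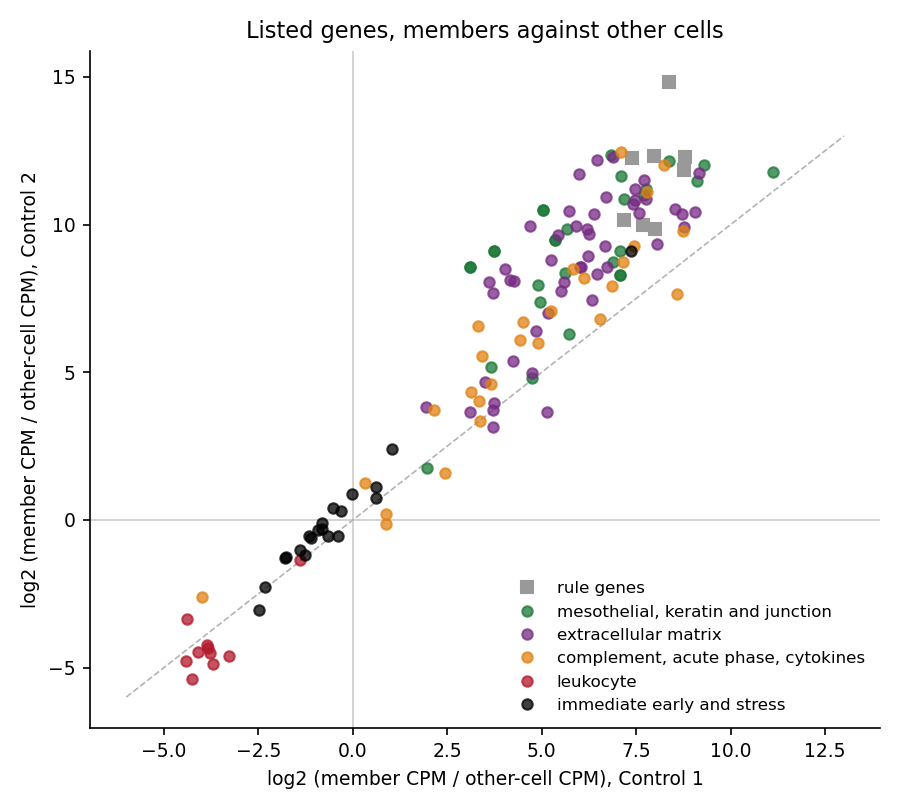
Log2 ratio of member CPM to other-cell CPM in Control 1 (horizontal axis) and Control 2 (vertical axis) for listed genes with at least 20 member UMIs in each, coloured by list, with the dashed line of equal ratio. Matrix, mesothelial and complement genes lie above 0 in both libraries and leukocyte genes below 0 in both.

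The members of the Control libraries resembled each other in most genes. Of the 5904 genes with at least 20 member UMIs in each, 98.0% differed by less than 2-fold between Control 2 and Control 1. Their summed counts still differed beyond counting noise (chi-squared per degree of freedom 6.94). The genes ranked farthest apart, among those with at least 50 UMIs, were partly carried by 1 cell. Spp1, which encodes osteopontin, had 301 UMIs in members of Control 2, of which 225 were in 1 cell, against 3 in Control 1. Tnc, tenascin C, had 63 UMIs in Control 2, of which 52 were in 1 cell, against 4 in Control 1. Timp1 had 2442 UMIs over 44 cells in Control 2, of which 736 were in 1 cell, against 1055 over 115 cells in Control 1.

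In the other direction, Dpt, which encodes dermatopontin, had 0 UMIs in members of Control 2, against 127 in 16 cells of Control 1. Pi16, a protease inhibitor of adventitial fibroblasts, had 14 UMIs in Control 2, against 179 in Control 1. Mki67, a proliferation gene, had 2 UMIs in 1 cell of Control 2, against 68 UMIs in 17 cells of Control 1. At least 4 of 10 cell cycle genes were found in 6 of 63 members of Control 2 and 22 of 294 members of Control 1, all of them mesothelial-positive. That count depends on depth, and negative cells were shallower and numbered only 41 in Control 1 and 4 in Control 2. The differences between the libraries have 1 library on each side and carry no test.

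The mesothelial-negative cells were tested against the positive ones over the Control libraries, leaving out the rule genes. With library as a term, edgeR's quasi-likelihood test called 0 of 6604 genes (0%) at a Benjamini-Hochberg adjusted p below 0.05, and 116 genes (1.76%) had an unadjusted p below 0.05. DESeq2 called 5 genes. The negative class was small, with 41 cells and 113693 UMIs in Control 1 and 4 cells and 10599 UMIs in Control 2, and 2 of those 4 cells had at least 2 pan-leukocyte genes. Summed over the negative cells of Control 2 the pan-leukocyte list stood at 4434 CPM, against 994 CPM in those of Control 1, and its part in the result was not tested. The portal fibroblast list went opposite ways in the libraries, with a log2 ratio of positive over negative cells of -1.59 in Control 1 and 1.36 in Control 2.

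A cell with few UMIs can miss all 4 mesothelial genes by chance of sampling. The members were therefore also split after thinning each to 1000 UMIs. This gave 163 positive and 68 negative cells in Control 1 and 46 and 16 in Control 2. The original split had only 41 and 4 negative cells, so many negative cells of the thinned split carry UMIs of the 4 genes at full depth. With these classes, and the full counts of each cell, edgeR called 78 of 7087 genes higher (1.10%) and 102 lower (1.44%) in positive cells at an adjusted p below 0.05. Genes are named from this fit after their values were seen.

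Mesothelial genes were higher in the positive cells of this depth-matched split. Of 19 listed mesothelial genes tested, 13 were higher and none lower, with a median log2 ratio of 1.33, against a median near 0 (-0.0029) over all genes tested. Krt7, a keratin, stood at 259 CPM in positive and 50.9 CPM in negative cells of Control 1, and 357 and 67.9 CPM in Control 2, a log2 ratio of 2.33 ± 0.25 (SE). Muc16, a surface mucin, stood at 287 and 28.5 CPM in positive and negative cells of Control 1, and 188 and 88.2 CPM in Control 2. Igfbp5, an insulin-like growth factor binding protein outside the mesothelial list, showed a log2 ratio of 2.77 ± 0.18 (SE). The level was higher in positive cells of both libraries for each of the 3.

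A few matrix genes differed between the classes of this split. Of 12 elastic fibre genes Eln was higher and Mfap2, a microfibril protein, lower. None of 15 fibrillar collagen genes and none of 13 basement membrane genes was called, which at the low share of calls over all genes says nothing particular about these lists. Lum, the proteoglycan lumican, stood at 144 CPM in positive and 285 CPM in negative cells of Control 1, and 73.3 and 455 CPM in Control 2, a log2 ratio of -1.77 ± 0.26 (SE). Pdgfra was lower in positive cells with a log2 ratio of -0.98 ± 0.22 (SE), and so was Fn1, fibronectin, with -0.99 ± 0.16. Of 12 chemokine and cytokine genes tested 4 were lower in positive cells, among them Cxcl13. It had 150 UMIs in positive and 536 in negative cells of Control 1, and 30 and 88 in Control 2. A single negative cell held 362 of these UMIs in Control 1, and another held 64 in Control 2. In the original split, positive cells of Control 1 held 639 Cxcl13 UMIs and negative cells 50. Leukocyte genes moved with these classes, since 4 of 6 pan-leukocyte genes, Cd52, Coro1a, Laptm5 and Ptprc, and 3 of 3 macrophage genes were lower in positive cells; their part in the other differences was not tested.

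In Control 1 alone, where the original split left 41 negative cells, genes were ranked by the ratio of positive to negative cells. The ranking was made after the data were seen, over 5835 genes with at least 30 UMIs, and has 1 library and no test. Over it, 13.8% of genes were over 2-fold higher and 8.45% over 2-fold lower in positive cells. Pi16 had 20 UMIs in positive and 159 UMIs in negative cells, which reached 1399 CPM. Dpt stood at 9.75 CPM in positive and 1003 CPM in negative cells, where it was found in 14 of 41 cells. Aspn, asporin, had 0 UMIs in positive and 36 in negative cells, where it was found in 4 of 41 cells and 1 cell held 20 UMIs. Cilp, a cartilage matrix protein, had 1 UMI in positive and 45 in negative cells, of which 38 were in 1 cell. Gsn, the actin-severing protein gelsolin, stood at 197 and 5638 CPM in positive and negative cells.

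Listed portal fibroblast and elastic fibre genes were mostly lower in positive cells in this ranking. Of 12 ranked portal fibroblast genes 8 were over 2-fold lower in positive cells and none over 2-fold higher, and of 13 elastic fibre genes 10 were lower and none higher. The depth-matched split did not show this for the portal fibroblast list, with a median log2 ratio of -0.11 over 11 genes tested. Of these 2 were called higher, Mgp and Eln, and 2 lower, Pi16 and Pdgfra. Pi16 had 12 UMIs in positive and 155 in negative cells of Control 1, but 13 and 1 in Control 2. That split also counted cells with mesothelial UMIs at full depth as negative, and the part of this in the result was not tested. The log2 ratio of the summed list in Control 1 was -0.038 in that split, against -1.59 in the original one. Of 19 mesothelial genes outside the rule 15 were over 2-fold higher in positive cells and none lower, Krt19 standing at 415 CPM in positive and 26.4 CPM in negative cells. The deepest negative cell, with 27928 UMIs, held 24.6% of the UMIs of its class. Without it the level in negative cells was 1854 CPM for Pi16 and 1318 CPM for Dpt, and 1971 CPM for Col1a1, against 2656 CPM with it and 1149 CPM in positive cells.

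Single negative cells differed in the genes found. At least 2 of 5 adventitial genes (Pi16, Dpt, Clec3b, Mfap4 and Aspn, chosen after their values were seen) were found in 9 of 253 positive and 16 of 41 negative cells of Control 1. Of the 41 negative cells, 19 had at least 3 further mesothelial genes, 3 of these also had 2 adventitial genes, and 9 cells had neither, which at their depth can also come from missed transcripts. In Control 2, 8 of 59 positive and 0 of 4 negative cells had 2 adventitial genes. Dpt, at 0 UMIs in all 63 members, was not detected there at this depth.

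**Figure D4:**
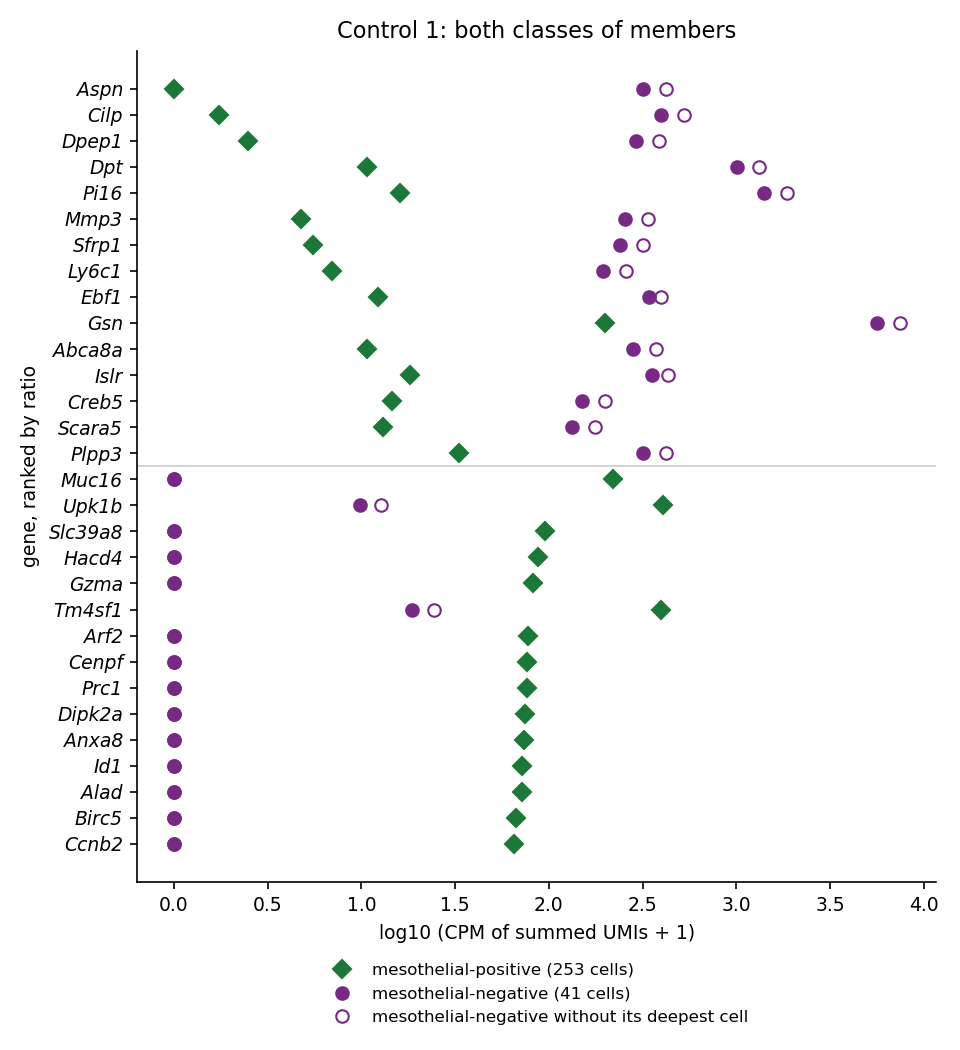
Levels in Control 1 as log10 of CPM plus 1 (horizontal axis) of the 15 genes with the lowest and the 15 with the highest ratio of mesothelial-positive (diamonds) to mesothelial-negative cells (circles; open without the deepest cell). Dpt stands at 9.75 CPM in positive and 1003 CPM in negative cells, and Muc16 at 219 and 0 CPM.

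The genotypes were also compared over all kept cells, with and without the members. With raw UMIs summed over all kept cells of each library, edgeR's quasi-likelihood test called 1014 of 14327 genes lower in KO (7.08%) and 205 higher (1.43%) at an adjusted p below 0.05. With the members left out, it called 105 of 13659 genes lower in KO (0.769%) and 50 higher (0.366%). Of the 1014 genes lower with members, 101 were also called lower without them. Of the other 913, 441 had too few counts to be tested without members and 472 were tested and not called. In such sums fewer cells of a type and less RNA per cell cannot be told apart, and the rule used this contrast, so nothing about the members is read from these counts.

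The 10 genes with the smallest p among the 913, called the lost genes here, included Timp1, with 3 UMIs in KO 1 and 0 in KO 2, against 1071 in Control 1 and 2451 in Control 2, of which 16 and 9 lay outside members. Sparc had 1 UMI in each KO library, against 4135 in Control 1 and 3839 in Control 2, of which 33 and 20 lay outside members. Mgp had 0 UMIs in either KO library, against 869 and 1318 in Control 1 and Control 2. Its pooled level was at least 883-fold lower in KO than in Control (3 counts over the group). Members held 95.1% and 98.9% of its UMIs in Control 1 and Control 2, and the rule used this contrast. For Mgp and the other lost genes, the ratios and the loss of the call are therefore descriptions and not results of the genotype. Csrp2 also had UMIs in the KO libraries. This gene, for a LIM-domain protein, had 136 and 143 UMIs in KO 1 and KO 2, against 1429 and 2456 in Control 1 and Control 2, of which 83 and 189 lay outside members, and its log2 ratio of KO over Control was -4.13 with members and -0.45 without them (adjusted p = 0.204).

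A further 5 of the lost genes were Rarres2 (the adipokine chemerin), Serping1, Aebp1 (a collagen-binding matrix protein), Enpp2 (autotaxin) and Ptgis. They had 0 to 15 UMIs in each KO library, against 346 to 1673 in each Control library, and members held 97.4% to 99.6% of the Control UMIs. Rarres2 stood at a log2 ratio of KO over Control of -6.91 with members and -0.62 without them, and Enpp2 at -5.19 and -0.10.

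**Figure D5:**
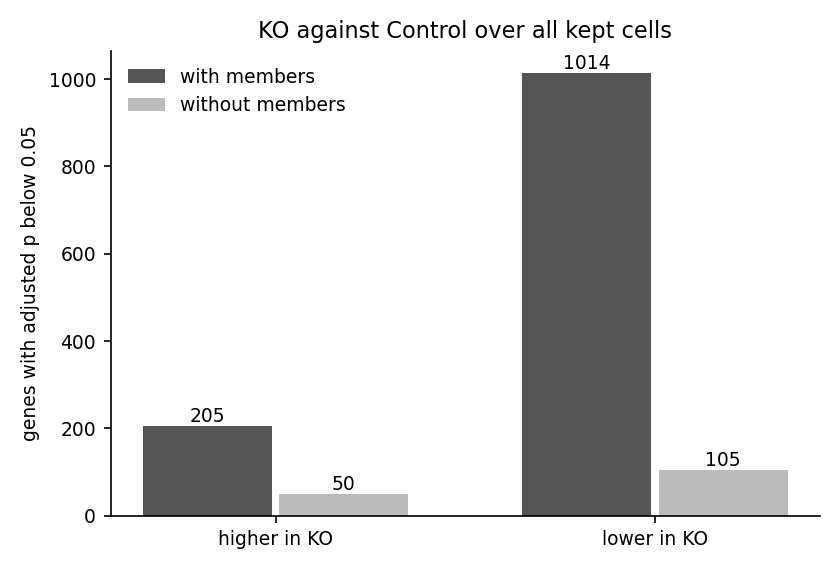
Genes with an edgeR adjusted p below 0.05 (vertical axis), higher or lower in KO than in Control, in sums over all kept cells with the members and without them. Lower calls number 1014 with and 105 without the 357 members.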

How the data were processed

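The authors deposited 4 droplet single-cell libraries of liver (2 KO, 2 Control) as raw UMI counts per gene and cell barcode. The counts were made with Cell Ranger 3.1.0 on mm10, per the submitters' processing notes. Other settings are not given in the sources used here. The members and the gene lists were chosen with earlier results of these data known. Deposited counts were summed per library and class of cells, and levels are CPM of those sums. Log2 ratios per library add 0.5 to each sum. Classes and genotypes were compared with edgeR 4.0.16 (quasi-likelihood, TMM, filterByExpr, Benjamini-Hochberg adjusted p below 0.05; library as a term for the classes), checked on simulated counts, with DESeq2 1.42.0 as an alternative. Thinning drew UMIs without replacement with a fixed seed. Intervals of shares are exact binomial at 95% and cover counting error only.

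Genes were named by fixed rules: the 8 rule genes and Ccn1; the 20 genes outside the rule with the largest ratio, in the lower of both Control libraries, of member to other-cell level, at 20 or more member UMIs in each; the 10 genes with the smallest p called lower in KO with members and not without them; and in each list up to 4 genes by mean member level, with the PDGF, CCN and TGF-beta ligands. The rule for the class comparison named none, as no gene passed. A gene that these rules name is not reported here. Other settings changed the mitochondrial limit, the depth minimum, the gate, mixed barcodes, the scaling, the filter on low counts, the replicate block and single libraries. Replicate numbers were checked for pairing and share only a number (correlation of replicate differences between genotypes 0.065), so no block was used for the genotypes.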

Additional observations from a re-analysis of the deposited data

How the results depend on the processing

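The share of members was 0% in both KO libraries under every setting tried. In Control 1, against 6.23%, it was 4.71% at 10% mitochondrial UMIs, 7.94% at 1000 UMIs, 4.90% without members with 2 or more pan-leukocyte genes, 5.26% at 4 gate genes and 4.32% after thinning to 500 UMIs. In Control 2, against 0.889%, it was 0.480% without members with pan-leukocyte genes and 0.635% after thinning. The median log2 ratio of the 20 named profile genes was 9.72, 8.60 at 4 gate genes, where cells with 3 joined the other cells, and 9.06 to 10.39 in single libraries.

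For positive against negative members, the 0 called genes became 5 with DESeq2, 14 without a filter, 180 after thinning and 53 without the library term (no replicate block). The log2 ratio of the summed mesothelial list was 2.10, 0.995 after thinning and 1.57 to 2.62 in single libraries. For the portal fibroblast list it was -0.12, 0.30 after thinning (-0.038 in Control 1 and 0.64 in Control 2), and ranged over single libraries between -1.59 and 1.36.

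For KO against Control, 1219 genes were called with members, 155 without, and 913 lower ones were lost. Without a filter these were 3307, 1726 and 1374. With the replicate block 2904 and 1166 were called, though the replicates share only a number, and with DESeq2 1985 and 636. Without members the count was 239 at 1000 UMIs. Where the 92 members with 2 or more pan-leukocyte genes stayed among the other cells it was 1223, with 205 lost. Leaving out 1 library gave 247 to 5083 with members, 27 to 2310 without, and 204 to 1732 lost. The lowest counts with members came without KO 1 (247) and KO 2 (249), and the highest without Control 2 (5083). Without Control 1 the counts were 1893 and 821. Each of the 10 named genes stayed lower in KO at the other settings. These were 130 combinations of a gene with a setting and not 130 separate fits, and the rule used this contrast. A lone library in an arm was assumed to vary like the other group. With 2 libraries a group and all members in Control, no genotype effect within the members can be measured, and the 4 negative cells of Control 2 limit the class comparison.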
